A study of Mus musculus with 6 samples.

Results

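The 9 genes described here encode the core of transforming growth factor beta (TGF-beta) signalling: the ligands Tgfb1, Tgfb2 and Tgfb3, the receptors Tgfbr1, Tgfbr2 and Tgfbr3, the transducer Smad3 and the inhibitors Smad7 and Skil. They were chosen by gene symbol, and all 9 were found among the 56884 genes listed for every library. UMIs (unique molecular identifiers, which count captured RNA molecules) were added up over the cells of each type in a library, and levels are given as counts per 1e+06 UMIs of that cell type (CPM), with exact Poisson 95% intervals where an error is given.

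Single-cell RNA sequencing (BD Rhapsody whole-transcriptome analysis) covered 6 libraries, each of pooled cells from 2 mice of 1 genotype. The 4 lung libraries held a lox/lox control and an iPCKO for each of the Bdnf and the Hgf allele at postnatal day 21, from cells depleted of CD45+ and Ter119+ blood cells, and the cortex libraries were Nodal lox/lox control and Nodal iPCKO at postnatal day 12, with myelin debris removed. All mice received 50 µg tamoxifen a day on days 1 to 3. The iPCKO mice carried the Pdgfrb-CreERT2 transgene, which acts in mural cells and can act in other cells with Pdgfrb, and the controls had the floxed alleles without CreERT2. Each condition had 1 library, so no comparison between genotypes has a replicate or a test, and all intervals cover counting error only.

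Cells were barcodes with at least 1500 UMIs, or 700 in the Hgf libraries, which left 14622 to 24311 per lung library and 3237 and 5008 in the cortex, at median depths of 2841 to 7791.5 UMIs. A marker gate assigned 75.3 to 90.7% of them to a cell type, and 3.86 to 12.2% lay near a limit of the gate. Within each lung pair the mutant library was shallower than its control. The control and mutant libraries of a pair shared 457 (Bdnf), 254 (Hgf) and 21 (Nodal) cell barcodes, where independent draws would share 456.9, 258.8 and 17.76. Some libraries of different pairs shared more: Nodal iPCKO had 108 against 80.23 with the Hgf control and 116 against 88.65 with Hgf iPCKO. Others shared fewer, such as Bdnf iPCKO and Hgf iPCKO with 404 against 430.3. In pericytes, Nodal was counted with 188 UMIs in the control and 0 in the Nodal iPCKO cortex, where a bound of 3 UMIs corresponds to 1.27 CPM and the exact upper limit is 1.56, and Hgf with 22 UMIs in control and 7 in Hgf iPCKO lungs, at 162 and 24.99 CPM. The lower Hgf level was not confined to mural cells. Endothelial cells had 21.3 CPM in the Hgf control and 4.02 in Hgf iPCKO (295 and 69 UMIs), and immune cells 144 and 34.4 (95 and 38 UMIs). The cause of this was not tested. Bdnf had 5 and 1 UMIs in lung pericytes, too few for a comparison, and lay at 203 and 180 CPM in alveolar type 1 cells of the Bdnf pair. Whether the counted reads fall in the deleted part of each gene was not tested.

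TGF-beta ligands are secreted in a latent complex bound to matrix and are released by integrins and proteases. The freed ligand binds TGFBR2, which recruits and activates TGFBR1, and TGFBR3, also called betaglycan, presents ligand, above all TGF-beta 2, to this pair. The activated receptor phosphorylates SMAD2 and SMAD3, which enter the nucleus with SMAD4, and the pathway induces its own brakes, among them SMAD7, which blocks the receptor, and SKIL (SnoN), which represses SMAD targets. In the lung the pathway takes part in alveolar and mesenchymal differentiation, and in the brain microglia depend on it for their resting identity.

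Of the 9 genes, 5 had a match among the RefSeq promoters of build GRCm38.p6 that were searched. Tgfb3, Tgfbr3 and Skil had no entry there. The promoter of Smad7 was left out of the search, so whether it holds the core described below was not tested. The 250 bases before the start of Tgfb2 and of Tgfbr1 are shown because the results turn on these genes, Tgfb2 in alveolar type 1 and mesenchymal cells and Tgfbr1 in microglia. Capitals mark the letters CAGAC or, for the other strand, GTCTG, the core that SMAD proteins can bind.
Tgfb2, chr1:186705990-186706239, minus strand: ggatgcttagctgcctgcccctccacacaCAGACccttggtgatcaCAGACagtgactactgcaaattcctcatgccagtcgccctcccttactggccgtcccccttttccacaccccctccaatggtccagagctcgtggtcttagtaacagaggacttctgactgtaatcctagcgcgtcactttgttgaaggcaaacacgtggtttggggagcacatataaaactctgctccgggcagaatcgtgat
Tgfbr1, chr4:47352972-47353221, plus strand: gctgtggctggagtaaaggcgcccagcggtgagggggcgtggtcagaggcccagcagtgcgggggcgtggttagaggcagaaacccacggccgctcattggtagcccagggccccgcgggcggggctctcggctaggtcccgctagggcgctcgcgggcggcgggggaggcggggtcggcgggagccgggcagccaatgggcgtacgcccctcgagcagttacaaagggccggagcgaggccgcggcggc
The window before Tgfb2 held 2 such cores and the Tgfbr1 window shown held 0, while a second RefSeq promoter of Tgfbr1, chr4:47385966-47386215, held 1. Of the 32851 promoter windows of this length that were searched 42.2% hold at least 1 core, so a match is common. In GRCm39, the build of the count files, Tgfb2 lies on chromosome 1 from 186354985 to 186438294 on the minus strand, Tgfbr1 on chromosome 4 from 47353134 to 47414931 on the plus strand, and Tgfbr3 on chromosome 5 from 107249402 to 107437623 on the minus strand.

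The cells with the most of each ligand differed, although Tgfb2 and Tgfb3 were both found in mesenchymal and mesothelial cells. In the lung, Tgfb1 was at 40.3 to 76.8 CPM in general capillary (gCap) endothelium over the 4 libraries. It was at 32.0 to 60.6 in venous endothelium, 33.0 to 79.6 in lymphatic endothelium and 43.5 to 88.4 in the immune cells that escaped depletion. These ranges overlap, so no order among these cell types can be read, whereas aCap endothelium, at 24.6 to 42.3 CPM, lay below the immune cells. Epithelium had less, with 14.8 CPM or below in alveolar type 1 (AT1), alveolar type 2 (AT2), club and ciliated cells, and matrix and adventitial fibroblasts had 11.6 or below.

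Tgfb2 had its highest medians in venous endothelium and AT1 cells. The venous values were 375 CPM in the Bdnf control, 328 in Bdnf iPCKO, 242 in the Hgf control and 203 in Hgf iPCKO. All of these lay above the other blood endothelium, at 5.38 to 41.5 CPM in gCap, aerocyte capillary (aCap) and arterial cells. Pericytes (161 to 266 CPM), myofibroblasts (134 to 353) and smooth muscle (51.2 to 525) overlapped with AT1 and venous cells in level, and AT2 cells lay at 2.57 to 9.13.

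Tgfb3 was found in mesenchymal, mesothelial and lymphatic cells of the lung. Mesothelial cells, counted only in the Bdnf pair, had 163 and 155 CPM, adventitial fibroblasts 63.4 to 180, myofibroblasts 62.9 to 192 and lymphatic endothelium 73.1 to 124. Matrix fibroblasts, at 23.9 to 48.1 CPM, lay below all of these ranges.

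**Figure D1:**
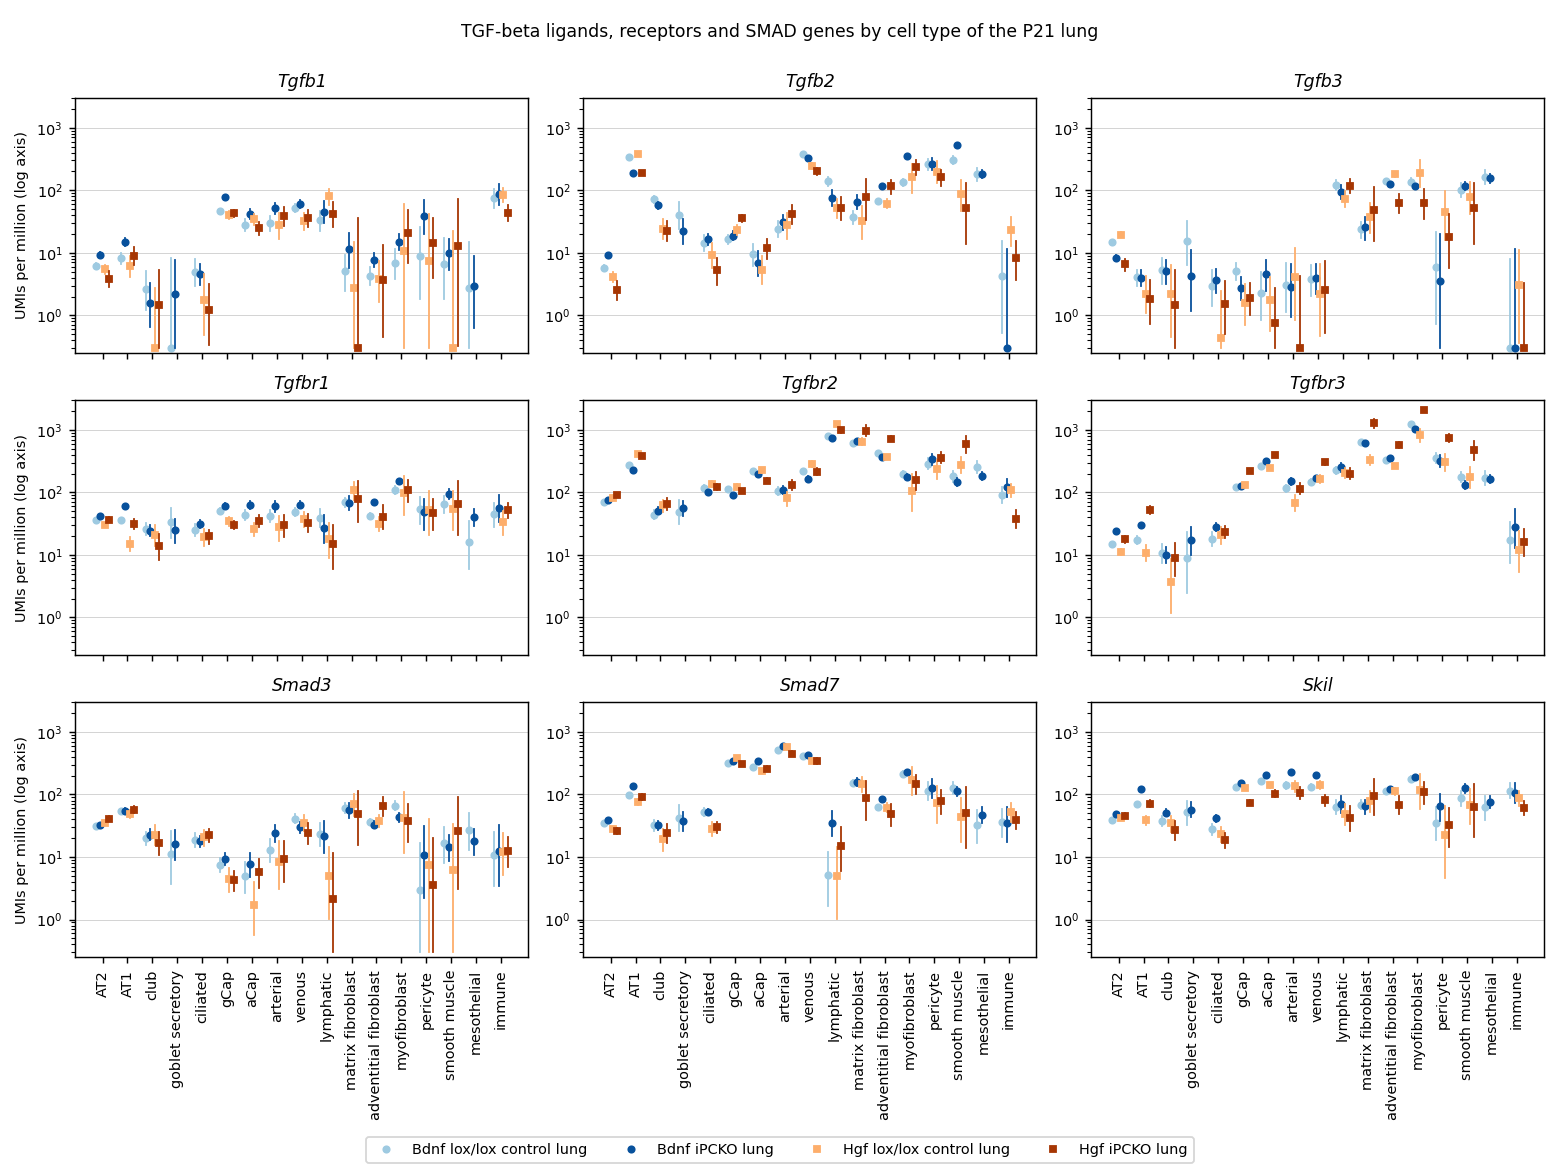
Level of each gene (CPM, log axis) by gated cell type in the 4 lung libraries, with exact Poisson 95% intervals as bars; levels of 0 are drawn at 0.3. Tgfbr3 is highest in myofibroblasts (823 to 2082), Smad7 in arterial endothelium (450 to 593) and Tgfbr2 in lymphatic endothelium (731 to 1239).

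Among the receptors of the lung, Tgfbr1 was highest in myofibroblasts at 96.1 to 149 CPM, a range that overlaps with matrix fibroblasts at 68.8 to 108, and its lowest medians were in ciliated, lymphatic and club cells. Tgfbr2, the ligand-binding receptor, was at 803, 731, 1239 and 986 CPM in lymphatic endothelium (Bdnf control, Bdnf iPCKO, Hgf control, Hgf iPCKO), a range that overlaps with 622 to 972 in matrix fibroblasts. The alveolar epithelium was divided: AT1 cells had 228 to 416 CPM of Tgfbr2 and AT2 cells 69.1 to 92.2, with no overlap.

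Tgfbr3 was high across the mesenchyme. Myofibroblasts had 1229 CPM in the Bdnf control, 1032 in Bdnf iPCKO, 823 in the Hgf control and 2082 in Hgf iPCKO, and the range of 335 to 1266 in matrix fibroblasts overlapped with theirs. Among endothelial cells the aCap type was at 249 to 392 CPM and gCap at 120 to 223, with no overlap. Club cells had the lowest median, with values of 3.69 to 10.6 CPM that overlap with those of goblet secretory cells (8.99 and 17.3).

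The intracellular genes were distributed otherwise. Smad7, a feedback gene of the pathway, was at 516, 593, 569 and 450 CPM in arterial endothelium (same order of libraries), above the venous range of 342 to 428, while gCap at 311 to 382 overlapped with venous cells. Lymphatic endothelium, with 3 to 21 UMIs per library, had 4.88 to 35.4 CPM and the lowest median of the lung, so the endothelium with the most Tgfbr2 had the least Smad7. Smad3 was at 49.1 to 57.2 CPM in AT1 cells and 48.1 to 69.9 in matrix fibroblasts but at 4.23 to 9.36 in gCap endothelium, and it had 1 to 3 UMIs per library in lung pericytes. Skil gave overlapping values of 74.4 to 227 CPM over the 4 blood endothelial types.

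In the cortex, microglia stood apart for 3 genes among the 7 cell types with at least 30 cells in each library. Perivascular macrophages, the gated type nearest to microglia, had 25 and 18 cells and were not compared. Tgfbr1 was at 720 CPM (95% interval 698 to 743) in control and 612 (596 to 628) in Nodal iPCKO microglia, and none of the other 6 types exceeded the 62.0 CPM of fibroblasts. Skil was at 918 and 921 CPM against 157 or less in those 6 types, and Tgfb1 at 126 and 97.4 against 36.9 or less. Microglia had little of Tgfb2, at 1.09 and 1.35 CPM, and of the co-receptor Tgfbr3, at 1.82 and 1.67.

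The gap was also visible per cell. At least 1 Tgfbr1 UMI was found in 95.4 and 92.6% of microglia, against 14.6 and 14.9% of astrocytes, whose cells were deeper (median 10270 and 11119.5 UMIs against 6239 and 6510). After thinning every cell to 1500 UMIs the shares were 61.9 and 58.7% of microglia and 1.67 and 2.51% of astrocytes.

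Of the other ligands of the cortex, Tgfb2 was found in mural, astrocyte, endothelial and fibroblast cells, and Tgfb3 in mural cells and fibroblasts. Vascular smooth muscle cells (vSMC) had the highest Tgfb2, 525 CPM in the control and 535 in Nodal iPCKO, and also the highest Tgfb3, at 183 and 254. Astrocytes followed for Tgfb2 with 160 and 215 CPM, above endothelial cells at 130 and 116. The receptor Tgfbr2 was at 295 and 339 CPM in microglia and 319 and 286 in endothelial cells, ranges that overlap, and at 7.004 and 9.85 in astrocytes.

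**Figure D2:**
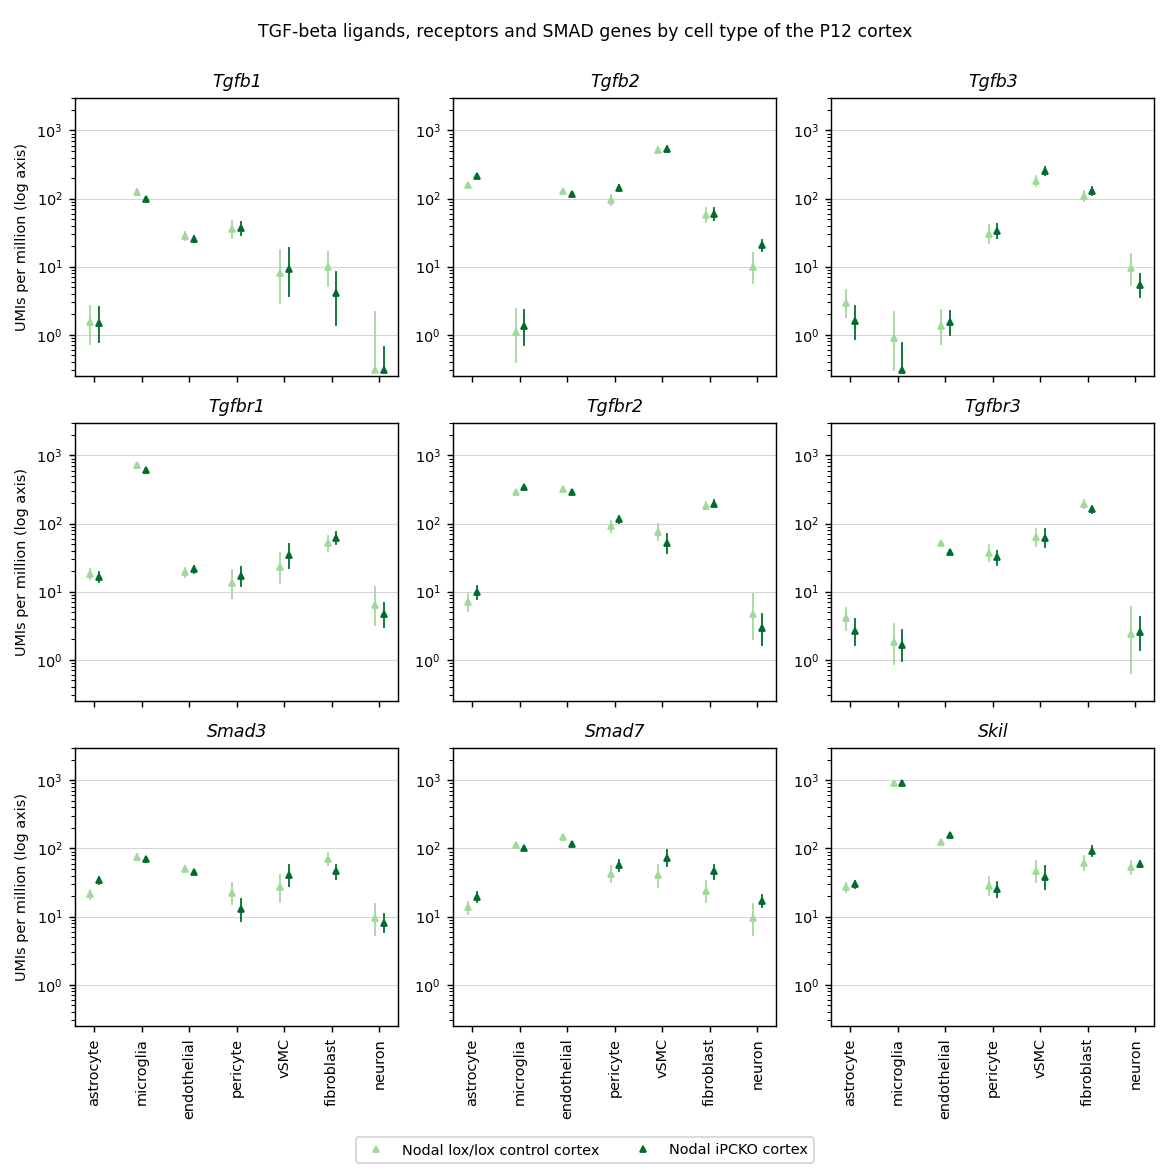
Level of each gene (CPM, log axis) by gated cell type in the 2 cortex libraries, with exact Poisson 95% intervals as bars; levels of 0 are drawn at 0.3. Of the 7 types shown, microglia lead for Tgfb1 (97.4 and 126), Tgfbr1 (612 and 720) and Skil (918 and 921), and vSMC for Tgfb2 (525 and 535).

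Vascular and muscle cells of the lung and the cortex can be set side by side, although organ, age, preparation and library cannot be told apart. Of the 9 genes, 5 were higher in lung than in cortical endothelium without overlap of the library ranges, 3 were lower and 1 overlapped. The share of all genes without such overlap was not counted, here or for the pericytes and muscle cells below. These counts therefore describe the members only and cannot be called unusual. The lung class holds all endothelial types, and the counts depend on its makeup: Tgfb3, counted as higher in the lung, was at 73.1 to 124 CPM in lymphatic cells but at 0.76 to 4.54 in aCap, which overlaps with 1.36 to 1.52 in the cortex, and Tgfb2, counted as lower, was at 203 to 375 in venous cells against 116 to 130 in the cortex. Tgfbr3 was at 146 to 258 CPM in lung endothelium and 37.9 to 51.2 in the cortex, and Smad7 at 299 to 371 against 115 to 147. Smad3 went the other way, with 8.11 to 16.2 CPM in the lung and 44.6 to 50.1 in the cortex, and so did Tgfbr2, with 144 to 216 against 286 to 319.

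In pericytes 5 genes were higher in the lung, 1, Smad3, was higher in the cortex and 3 overlapped. The lung pericyte values of Tgfbr3, at 350, 319, 302 and 744 CPM, compared with 37.5 and 31.8 in cortical pericytes, and those of Tgfbr2, at 236 to 361, with 91.0 and 115. Between lung smooth muscle and cortical vSMC 4 genes were higher in the lung, 3 in the cortex and 2 overlapped, but 1 of the 3, Tgfb2, differed by less than counting error between its highest lung value (524.7 CPM) and its lowest cortex value (524.9). The lung class was not split into airway and vascular muscle.

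Across the 24 cell types of both organs the genes with the most similar profile differed from member to member. By the Pearson correlation of mean log2(CPM + 1), a description over cell types that share libraries and depth, Tgfb1 was most like Fli1 (r = 0.92), Tgfb2 like Tead1 (0.77), Tgfb3 like Adamts15 (0.89), Tgfbr1 like Gm45223 (0.82), Tgfbr2 like Snx9 (0.89), Tgfbr3 like Sntb2 (0.90), Smad3 like Snx24 (0.73) and Skil like Tfe3 (0.82). The 3 genes closest to Smad7 were Smad6 (0.84), Bmpr2 (0.82) and Acvrl1 (0.82), an inhibitory SMAD, a BMP receptor and an endothelial receptor of the same superfamily. Among the members themselves, Tgfbr1 and Skil were the pair with the highest correlation (0.741) and Tgfb2 and Skil that with the lowest (-0.347).

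Between genotypes, a gene was compared in a cell type when it had at least 50 UMIs in both libraries together, and called when it passed 1.5-fold. With the endothelium taken as 1 type, 15 of 90 pairs of member and cell type in the Bdnf lung were higher in the mutant past that fold and 4 lower, where 7.79% and 5.3% of all pairs of gene and cell type were. In the Hgf lung 16 of 61 were higher and 9 lower, beside 13.7% and 15.6% of all pairs. The control lungs of both alleles, which share their libraries with these comparisons, also lay apart: of 77 pairs 4 were higher and 17 lower in the Hgf control than in the Bdnf control, beside 11.1% and 16.1%. In the Nodal iPCKO cortex 8 of 49 were higher and 3 lower, beside 4.82% and 5.59%. Without cells of high mitochondrial share, and likewise with a stricter gate, 5 were higher and 1 lower.

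Tgfb2 in AT1 cells was lower in both lung mutants. It was at 335 CPM (95% interval 325 to 345, 4063 UMIs, 1411 cells) in the Bdnf control and 186 (178 to 194, 2139 UMIs, 2468 cells) in Bdnf iPCKO, and at 380 (362 to 399) in the Hgf control and 190 (177 to 204) in Hgf iPCKO. Both control values lay above both mutant values. The log2 ratios of mutant to control were -0.85 (-0.93 to -0.77) and -1.001 (-1.13 to -0.87), while the Hgf control differed from the Bdnf control by 0.18 (0.10 to 0.27).

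The share of AT1 cells with a Tgfb2 UMI followed. Thinned to 1500 UMIs per cell it was 36.1% in the Bdnf control and 21.3% in Bdnf iPCKO, and 41.7% and 25.4% in the Hgf pair, for which 82 and 170 shallower cells were left out. Without thinning the shares were 79.9, 44.5, 67.9 and 39.0% at median depths of 8009, 4099, 4127 and 2886.5 UMIs. In AT2 cells, taken as background, 3.23, 3.92, 1.57 and 0.81% had one before thinning, at 8692, 6041, 4806 and 3620 UMIs.

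Itgb6, the subunit of the integrin that frees latent TGF-beta on epithelia, was lower in the same cells. Its AT1 level was 312 CPM in the Bdnf control and 131 in Bdnf iPCKO, a log2 ratio of -1.25 (-1.34 to -1.17), and 412 in the Hgf control and 108 in Hgf iPCKO, a ratio of -1.93 (-2.09 to -1.78). Its partner subunit Itgav was at 150 and 134 CPM in the Bdnf pair and 212 and 116 in the Hgf pair, ratios of -0.16 (-0.26 to -0.06) and -0.86 (-1.03 to -0.70). The 8 AT1 markers of the gate summed to 25142, 26134, 37125 and 37942 CPM in the 4 libraries. Cells enter the gate by these same markers, so the sums cannot show whether AT1 identity was kept. The 9 AT2 markers, all counted in each library, summed in the AT1 gate to 2850 and 4107 CPM in the Bdnf pair and 3087 and 4910 in the Hgf pair, and their part in the result was not tested.

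Other members were higher in AT1 cells of the mutants. Skil was at 69.5 and 120 CPM in the Bdnf pair and 38.7 and 71.4 in the Hgf pair, log2 ratios of 0.79 (0.67 to 0.92) and 0.88 (0.61 to 1.17). Tgfbr1 was at 36.0 and 60.6 and at 15.1 and 31.2 CPM, ratios of 0.75 (0.58 to 0.93) and 1.04 (0.60 to 1.497). The control lungs were as far apart for these genes: the ratios of the Hgf to the Bdnf control were -0.85 (-1.10 to -0.61) for Skil and -1.25 (-1.64 to -0.87) for Tgfbr1. In barcodes with under 100 UMIs Skil was at 124 and 151 CPM in the Bdnf pair and 115 and 99.9 in the Hgf pair. Tgfbr1 was there at 85.2 and 108 and at 67.2 and 66.9 CPM. The part of free RNA in the AT1 values was not tested. Cdkn1a, a cell cycle inhibitor among the TGF-beta targets, was at 57.4 and 93.6 CPM in the Bdnf pair and 33.7 and 242 in the Hgf pair, ratios of 0.70 (0.57 to 0.84) and 2.84 (2.59 to 3.10), while the ratio of the Hgf to the Bdnf control was -0.77 (-1.03 to -0.51).

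In the mesenchyme of Bdnf iPCKO lungs Tgfb2 was higher. Myofibroblasts had 134 CPM in the control (271 UMIs) and 353 in the mutant (1168 UMIs), adventitial fibroblasts 67.8 and 117, matrix fibroblasts 36.8 and 64.6, and smooth muscle 309 and 525. The log2 ratios were 1.40 (1.21 to 1.59), 0.78 (0.63 to 0.94), 0.81 (0.30 to 1.32) and 0.77 (0.53 to 1.01). In pericytes, which like smooth muscle are mural cells that the transgene can target, Tgfb2 was at 261 and 266 CPM, a ratio of 0.02 (-0.44 to 0.49).

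The control lungs lay far apart for Tgfb2 in smooth muscle, with 85.7 CPM (14 UMIs) in the Hgf control, a ratio to the Bdnf control of -1.85 (-2.75 to -1.07), and Hgf iPCKO had 51.2 (4 UMIs). The Hgf pair gave fewer counts for these cells. Adventitial fibroblasts had 61.3 CPM in the control and 116 in the mutant, a ratio of 0.91 (0.45 to 1.36) from 129 and 62 UMIs, and myofibroblasts 160 and 235, a ratio of 0.55 (-0.29 to 1.481) from 15 and 56 UMIs. In the Bdnf myofibroblasts the 6 smooth muscle markers, all counted, summed to 428 CPM in the control and 299 in the mutant. The 8 adventitial markers, 7 of them counted with Ccl11 at 0, summed to 1990 and 1397. The gate leaves out cells with a high score for another class, which limits such sums. Markers of other types were higher there, however: the 8 AT1 markers summed to 605 and 871 CPM and the 9 AT2 markers to 1120 and 2043, all counted, the 8 endothelial markers to 239 and 372, and the 3 club markers to 103 and 219, with Scgb1c1 at 0 in both. The 4 myofibroblast markers themselves summed to 6580 and 10122 CPM. The part of these in the Tgfb2 value was not tested.

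Tgfb1 was higher in Bdnf iPCKO endothelium. The level was 40.4 CPM (38.0 to 43.1) in the Bdnf control and 62.1 (59.1 to 65.2) in the mutant, a log2 ratio of 0.62 (0.50 to 0.73), whereas the Hgf pair had 39.8 and 38.3. The mutant library stood above the other 3, and within the endothelium gCap cells were at 45.8 and 76.8 CPM. In barcodes with under 100 UMIs, which hold mostly free RNA, Tgfb1 was at 41.1 CPM in the control and 62.7 in the mutant, and the part of free RNA was not tested. Tgfb1 also passed 1.5-fold in AT1 cells, adventitial fibroblasts and myofibroblasts of this pair, all at 15.1 CPM or less.

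Tgfb3 in AT2 cells was lower in both mutants than in both controls. It was at 15.1 and 8.41 CPM in the Bdnf pair and 19.5 and 6.57 in the Hgf pair, with log2 ratios of -0.84 (-1.03 to -0.66) and -1.57 (-1.92 to -1.24). In barcodes with under 100 UMIs Tgfb3 was at 19.8 and 18.9 CPM in the Bdnf pair and 15.7 and 7.89 in the Hgf pair, close to or above the AT2 levels, and the part of free RNA in the AT2 values was not tested. Adventitial fibroblasts, a main source of this ligand, had 180 and 63.4 CPM in the Hgf pair, a ratio of -1.51 (-2.06 to -0.9993), and 141 and 124 in the Bdnf pair. In the Hgf pair the matrix fibroblast markers in this gate were higher in the mutant, as given below. Matrix fibroblasts had less Tgfb3, at 23.9 to 48.1 CPM, and their part was not tested.

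With blood and lymphatic endothelium counted as 1 type, Tgfbr3 was higher past 1.5-fold in 8 of the 9 cell types tested in the Hgf pair. Over all pairs of gene and cell type 13.7% were higher. The share over all genes was 18.4 to 28.1% in the mesenchymal types and 11.9 to 12.8% in endothelial, AT1 and AT2 cells. Of the endothelial types, gCap, aCap, arterial and venous cells passed 1.5-fold. Lymphatic cells, at 206 and 200.2 CPM, did not, with a ratio of -0.04 (-0.44 to 0.35). Endothelial cells had 158 CPM (152 to 165) in the control and 258 (250 to 266) in Hgf iPCKO, a log2 ratio of 0.70 (0.63 to 0.78), and the Bdnf libraries had 146 and 171. Pericytes had 302 CPM (217 to 410, 41 UMIs) and 744 (645 to 851, 208 UMIs), a ratio of 1.30 (0.81 to 1.82). In both cell types the Hgf iPCKO library was the highest of the 4.

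The same order held for Tgfbr3 in the rest of the mesenchyme, beside a median ratio over all genes of at most 0.14 in these cell types (myofibroblasts). Matrix fibroblasts, adventitial fibroblasts, myofibroblasts and smooth muscle gave ratios of 1.92 (1.57 to 2.30), 1.13 (0.93 to 1.34), 1.34 (0.99 to 1.70) and 1.42 (0.68 to 2.17), and the Hgf iPCKO level was above both Bdnf libraries in each. For matrix fibroblasts the Hgf control, at 335 CPM, was also low against the 650 of the Bdnf control, a ratio of -0.96 (-1.24 to -0.70). In myofibroblasts too the Hgf control, at 823 CPM, was the lowest of the 4 libraries.

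The alveolar epithelium had lower levels of Tgfbr3. AT1 cells had 10.8 CPM (7.92 to 14.3) in the Hgf control and 52.3 (45.3 to 59.998) in Hgf iPCKO, a log2 ratio of 2.28 (1.81 to 2.77), against 17.4 and 29.6 in the Bdnf pair. The Hgf control was thus the lowest of the 4 libraries in these cells. After thinning, 1.78% of control and 5.46% of mutant AT1 cells of the Hgf pair had a UMI. Among club cells, with the lowest median Tgfbr3 of the lung, 1 of 101 control and 2 of 115 mutant cells had one (0.99 and 1.74%). Their exact intervals were wide, at 0.025 to 5.39% and 0.21 to 6.14%. The latter overlaps with the 4.14 to 7.04% of mutant AT1 cells, so the thinned shares do not separate these cell types in the mutant. Without thinning the shares were 4.18 and 12.6% of AT1 cells and 2.94 and 8.62% of club cells, which were deeper (12309 and 11411.5 UMIs against 4127 and 2886.5). Ciliated cells were the exception among the tested types, with 20.7 and 23.5 CPM, a ratio of 0.19 (-0.37 to 0.73).

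Free RNA and neighbouring cell types moved as well. In barcodes under 100 UMIs Tgfbr3 was at 100 CPM in the Hgf control, 237 in Hgf iPCKO, and 218 and 234 in the Bdnf pair. In adventitial fibroblasts the 5 matrix fibroblast markers summed to 1391 and 2726 CPM in the Hgf pair, with 4 and 3 counted and Fgfr4 at 0 in both. In AT1 cells the same list was at 1774 and 2162 CPM with 5 and 4 counted, Slc7a10 being at 0 in the mutant. Their part in the Tgfbr3 values was not tested.

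**Figure D3:**
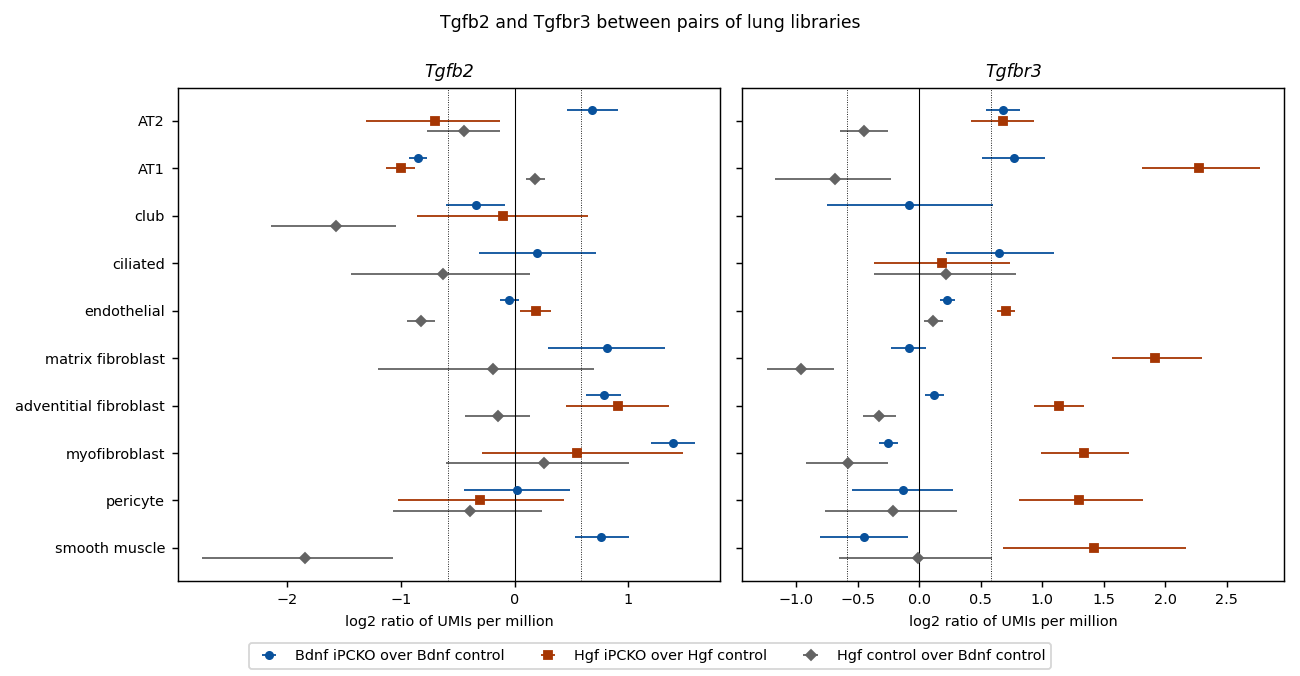
Log2 ratio of CPM for Tgfb2 (left) and Tgfbr3 (right) by cell type, with exact 95% intervals for counting error, between mutant and control of each lung pair and between both controls; dotted lines mark 1.5-fold. Tgfb2 in AT1 cells lies at -0.85 and -1.001, and Tgfbr3 of the Hgf pair lies at 2.28 in AT1 cells and 0.19 in ciliated cells.

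In the Hgf pair Tgfbr2 was higher past 1.5-fold in adventitial fibroblasts, pericytes and smooth muscle, while Skil was lower in endothelium and adventitial fibroblasts. Adventitial fibroblasts had 373 CPM of Tgfbr2 in the control and 727 in the mutant, a log2 ratio of 0.96 (0.78 to 1.14), and smooth muscle 275 and 589, a ratio of 1.10 (0.47 to 1.72), while endothelial cells had 216 and 162, a ratio of -0.42 (-0.49 to -0.34) that did not pass 1.5-fold. The matrix fibroblast markers in the adventitial gate, at 1391 and 2726 CPM, moved with Tgfbr2 as well, and their part was not tested. In smooth muscle the Hgf control was above the Bdnf control, with a Tgfbr2 ratio of 0.61 (0.08 to 1.13). Among the endothelial types arterial cells went the other way for Tgfbr2, with 79.9 and 133 CPM, a ratio of 0.73 (0.26 to 1.21). Skil was at 126 CPM (120 to 132) in the endothelium of the Hgf control and 82.6 (78.3 to 87.0) in Hgf iPCKO, a ratio of -0.61 (-0.71 to -0.51), whereas the Bdnf pair had 136 and 171. Skil was lower in adventitial fibroblasts too, at 112 and 69.0 CPM, a ratio of -0.70 (-1.24 to -0.19). Smad7 in endothelium kept within 1.5-fold in both pairs, with 336 and 371 CPM in the Bdnf and 335 and 299 in the Hgf lungs. In the few immune cells of the Hgf pair (98 and 105) Tgfbr2 was at 109 CPM in the control and 38.0 in the mutant, a ratio of -1.52 (-2.11 to -0.95), and Tgfb1 at 85.0 and 43.5, a ratio of -0.97 (-1.55 to -0.38). The median depth of these cells was 4523.5 and 8194 UMIs, and whether the mix of immune cells differed was not tested.

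Other genes of the pathway were taken from lists chosen with earlier results of these data known, so their counts are descriptive. Of 13 genes for storage and activation of the ligand, 21 of 115 pairs of gene and cell type were higher past 1.5-fold and 9 lower in the Bdnf lung, and 14 and 13 of 81 in the Hgf lung. The shares over all pairs of gene and cell type, 7.79% higher and 5.3% lower in the Bdnf and 13.7% and 15.6% in the Hgf lung, are the background for each of these lists. The 16 target genes gave 37 higher and 10 lower of 149 pairs in the Bdnf lung and 25 higher and 39 lower of 113 in the Hgf lung. The control lungs, with 11.1% higher and 16.1% lower over all pairs, differed in these lists as well: 25 higher and 42 lower of 126 for targets, 10 and 15 of 94 for storage and activation, 0 and 15 of 97 for SMADs and modulators, and 10 and 0 of 29 for the other receptors. The 11 SMADs and modulators gave 8 higher and 1 lower of 119 in the Bdnf and 13 and 10 of 84 in the Hgf lung, and the 5 other receptors 3 and 0 of 36 and 5 and 4 of 20. In the Nodal cortex 4.82% of all pairs were higher and 5.59% lower. Targets gave 18 higher and 7 lower of 77 there, and storage and activation 7 and 7 of 56. SMADs and modulators gave 5 and 1 of 74, and the other receptors 1 and 1 of 21.

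In the Bdnf myofibroblasts that had more Tgfb2, 5 of 15 tested targets were higher past 1.5-fold and 0 lower, beside 6.19% and 5.43% of all genes there, and the median log2 ratio was 0.28 beside -0.00 over all genes. Eln, the elastin gene, was at 7098 CPM in the control and 14262 in the mutant, a ratio of 1.01 (0.98 to 1.03), but the Hgf control, at 2500, lay further from the Bdnf control, with a ratio of -1.51 (-1.70 to -1.32). Fn1 (fibronectin) was at 36.6 and 76.5, a ratio of 1.06 (0.68 to 1.46). Ltbp2, of the family of latent TGF-beta binding proteins, was at 73.2 and 188, a ratio of 1.36 (1.10 to 1.63).

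In adventitial fibroblasts Thbs1, which can activate the latent ligand, was at 189 and 379 CPM in the Bdnf and 110 and 382 in the Hgf pair, ratios of 1.01 (0.92 to 1.10) and 1.80 (1.52 to 2.08), while the ratio of the Hgf to the Bdnf control was -0.78 (-0.99 to -0.58). Lox, a collagen crosslinking enzyme, was at 484 and 1883 CPM in the Hgf pair, a ratio of 1.96 (1.83 to 2.09), while Col3a1, at 24355 and 11455, was lower, with a ratio of -1.09 (-1.13 to -1.05). The matrix fibroblast markers in this gate, at 1391 and 2726 CPM, moved with all 3 genes: matrix fibroblasts of the Hgf pair had more Thbs1 (771 and 876 CPM) and Lox (1511 and 3293) and less Col3a1 (3260 and 761). Their part was not tested. Of 14 tested targets in these cells 2 were higher and 6 lower, beside 19.5% and 19.4% of all genes.

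In the Hgf endothelium 3 of 16 tested targets were higher and 5 lower, beside 11.9% and 15.8% of all genes, with a median log2 ratio of -0.29 beside -0.07 over all genes. Ccn2, a target shared with the YAP pathway, was at 196 CPM in the control and 474 in Hgf iPCKO, a ratio of 1.27 (1.21 to 1.33). Cdkn2b was at 31.5 and 9.10, a ratio of -1.79 (-2.07 to -1.53), but the Hgf control was itself above the 12.4 CPM of the Bdnf control, with a ratio of 1.35 (1.13 to 1.56).

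In cortical microglia no member passed 1.5-fold, whereas a list of genes that depend on TGF-beta in microglia did so in part. The log2 ratio of Nodal iPCKO to control was -0.24 (-0.29 to -0.18) for Tgfbr1, 0.20 (0.11 to 0.29) for Tgfbr2, -0.38 (-0.52 to -0.23) for Tgfb1 and 0.00 (-0.05 to 0.05) for Skil. Of the 8 listed microglia genes 5 were lower past 1.5-fold and 0 higher, beside 7.31% lower and 6.25% higher of all genes tested in microglia. Their median log2 ratio was -0.63 and that of all genes -0.05. The list was chosen with earlier results of these data known, so its counts are descriptive. The paper reports microglial activation in these mutants, and whether the lower values follow from this or from TGF-beta was not tested. The list of TGF-beta target genes did not go the same way in these cells. Among targets with at least 50 UMIs in each library, the 4 with the largest absolute log2 ratio were all higher in the mutant, at 0.16 to 0.75.

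Fcrls was at 610 CPM in control and 254 in Nodal iPCKO microglia, a ratio of -1.26 (-1.34 to -1.18). Slc2a5, a fructose transporter, was at 287 and 152, and Gpr34 at 491 and 287, with ratios of -0.91 (-1.02 to -0.81) and -0.78 (-0.85 to -0.70). P2ry12, the purine receptor of resting microglia, was at 5374 and 3389, and Tmem119 at 591 and 391, with ratios of -0.67 (-0.69 to -0.64) and -0.60 (-0.66 to -0.53). Olfml3, Siglech and Sall1 did not pass 1.5-fold, with ratios of -0.49, -0.37 and -0.22. The 3 microglia markers kept by the gate summed to 8062 CPM in control and 8264 in mutant cells, the 8 markers of perivascular macrophages to 351 and 274, with Cd163 at 0 in the control, and the 6 of other leukocytes to 6.74 and 8.95, with Nkg7 at 0 in both. Cells enter the gate by the 3 microglia markers, so their sum cannot show whether microglial identity was kept.

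**Figure D4:**
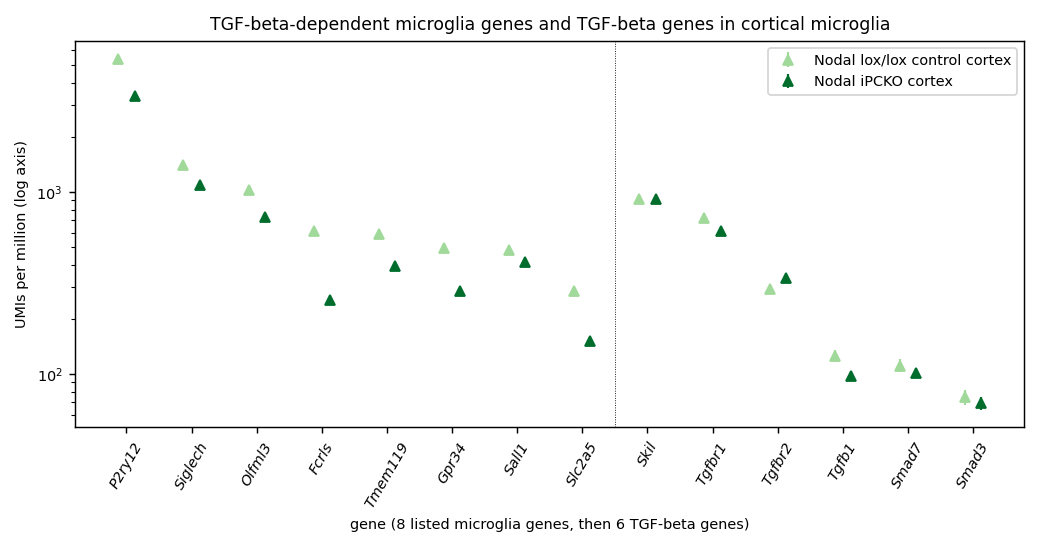
Level (CPM, log axis) of the 8 listed microglia genes and of TGF-beta genes in microglia of the control and the Nodal iPCKO cortex, with exact Poisson 95% intervals as bars. The 8 listed genes lie lower in Nodal iPCKO, while Skil lies at 918 and 921.

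Elsewhere in the cortex the inhibitor Smad7 was higher past 1.5-fold in 3 of 7 cell types, where 4.82% of all pairs of gene and cell type were. It was at 40.2 CPM (30 UMIs) and 72.4 (55 UMIs) in vSMC, 24.0 and 46.0 in fibroblasts and 9.42 and 16.9 in neurons, with log2 ratios of 0.85 (0.18 to 1.54), 0.94 (0.32 to 1.59) and 0.84 (0.07 to 1.71). In endothelial cells, which had the most Smad7 of the cortex, it was at 147 and 115 CPM, a ratio of -0.36 (-0.46 to -0.26). Smad3 was at 21.1 and 34.0 CPM in astrocytes, a ratio of 0.69 (0.40 to 0.97), and was also higher past 1.5-fold in vSMC, at 26.8 and 40.8. It was lower in fibroblasts, at 71.2 and 46.0, and pericytes, at 22.2 and 12.7. With a stricter gate the Smad3 ratio went from -0.63 to -0.505 in fibroblasts and from -0.81 to -0.564 in pericytes, so neither passed 1.5-fold, and in fibroblasts it was -0.583 without cells of high mitochondrial share, just under that fold. In barcodes with under 100 UMIs Smad7 was at 81.0 CPM in the control and 93.2 in Nodal iPCKO. These values lie above the Smad7 levels of vSMC, fibroblasts and neurons. Smad3 was there at 55.6 and 61.6 CPM, above its astrocyte, vSMC and pericyte levels. The part of free RNA in these values was not tested.

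Cortical pericytes, which like vSMC are mural cells that the transgene can target, had 95.2 CPM of Tgfb2 in the control and 145 in the mutant, a ratio of 0.60 (0.31 to 0.90), while vSMC had 525 and 535. Without cells of high mitochondrial share the pericyte ratio was 0.57 and no longer passed 1.5-fold. Of 13 tested target genes in pericytes 5 were higher past 1.5-fold and 1 lower, beside 5.53% and 3.86% of all genes, with a median ratio of 0.31 beside 0.02. Cdkn1a was at 79.9 and 200 CPM, a ratio of 1.32 (1.02 to 1.63). The 8 endothelial markers, all counted, summed in the pericyte gate to 227 CPM in the control and 369 in the mutant, and their part in these values was not tested.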

How the data were processed

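Each BD Rhapsody library pooled cells from 2 mice of 1 genotype. The deposited values are expected counts (estimated counts of UMIs) per gene and barcode, made by the authors with STAR 2.7.10a (STARsolo, multi-mapped reads shared out by expectation maximisation) on GRCm39, without a cell filter. Whether reads of near-identical genes were shared correctly cannot be checked from these estimated counts. Separate lists of barcode parts were not used here.

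Entries were summed as deposited, without rounding, over barcodes with at least 1500 UMIs (700 in the Hgf libraries). Libraries held 33889545 to 186701379 UMIs. A cell joined a class with a marker score of at least 0.25, at least 3 markers detected (2 for endothelial subtypes) and the next class at no more than 0.5 of that score. Classes needed 30 cells in each library. Levels are CPM (counts per 1e+06 UMIs of the cell type) with exact Poisson 95% intervals, log2 ratios have exact conditional intervals and shares exact Clopper-Pearson intervals, and a count of 0 was bounded at 3 UMIs. PCR and gating errors are outside these intervals. With 1 library per condition no test was run and no p-value is given. The ratio and its interval were tested on simulated data. Doublets were not removed, but a barcode that scored for 2 classes was left ungated. Scrublet, run in scanpy 1.11.5, marked 0.649 to 3.13% of cells and served as an alternative, as did double the UMI minimum, a filter on mitochondrial share, a stricter and a looser gate, entries rounded down, median-of-ratios scaling and a minimum of 20 UMIs. Python 3.11.15, numpy 2.4.6, scipy 1.17.1 and pandas 2.3.3 were used.

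Members and lists were chosen with earlier results of these data known. Named genes are the 9 members, up to 4 genes per list, comparison and cell type with the largest absolute log2 ratio among those with at least 50 UMIs in each library, listed genes set beside a member, and the 3 genes most correlated with each member. 1 listed target gene is not reported here by name.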

Additional observations from a re-analysis of the deposited data

Results flagged for a closer look

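Tgfb2 in AT2 cells and Skil in venous endothelium differed in direction between the lung pairs. Tgfb2 in AT2 cells had a log2 ratio of mutant to control of 0.68 (0.46 to 0.91) in the Bdnf pair and -0.70 (-1.31 to -0.13) in the Hgf pair, at levels of 2.57 to 9.13 CPM. Barcodes with under 100 UMIs, mostly free RNA, held 65.8 and 47.8 CPM of Tgfb2 in the Bdnf pair and 53.3 and 42.4 in the Hgf pair, above the AT2 levels, and the part of free RNA was not tested. Skil in venous endothelium had 0.59 (0.42 to 0.77) in the Bdnf pair and -0.84 (-1.21 to -0.47) in the Hgf pair. Each contrast has 1 library per condition, so the difference between the pairs was not tested.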

How the results depend on the processing

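No paired analysis was possible because each condition had 1 library and no result comes from a test. No member ratio past 1.5-fold changed sign under any alternative run. The log2 ratio of Tgfb2 in AT1 cells ranged from -0.88 to -0.80 in the Bdnf and from -1.04 to -0.87 in the Hgf pair, that of Tgfb2 in Bdnf myofibroblasts from 1.35 to 1.59 and that of Tgfbr3 in Hgf endothelium from 0.68 to 0.78, and 4 or 5 of the listed microglia genes were lower past 1.5-fold. The number of pairs of member and cell type higher in the Nodal cortex, 8, was 5 without cells of high mitochondrial share and 5 with the stricter gate, and the number lower, 3, was 1 under each of these and 6 with a minimum of 20 UMIs. The 4 pairs higher in the Hgf than the Bdnf control were 2 with the stricter gate. With a minimum of 20 UMIs the pathway lists gave 34 lower in the Bdnf lung in place of 22 and 35 lower in the Nodal cortex in place of 21. The cause of these shifts was not tested, beyond the larger number of pairs that the lower minimum admits. Depth limits the rarer cells: lung pericytes (71 to 174 cells per library) and Hgf myofibroblasts (42 and 125 cells) had few UMIs of most members.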
